A study of Rattus norvegicus with 6 samples.

Results

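The miRNAs described here are those made from a group of hairpins that lie close together within the Clcn5 gene on the rat X chromosome, with miR-500-3p as the member that drew attention to the group. Members were the entries of the deposited miRNA table whose name begins with miR-188, miR-362, miR-500, miR-501, miR-502, miR-532 or miR-660, and 8 of the 721 entries matched: both arms of Mir362, Mir532 and Mir500 (rno-miR-500-3p and rno-miR-500-5p), and single arms of Mir188 (5p) and Mir501 (3p). The names miR-502 and miR-660 matched no entry and were not analysed here. The group was chosen by the CPM values of miR-500-3p, which differ between diabetic and normal libraries in this same table, so that difference is a description and carries no test. The other 7 entries were matched by name and not by their values.

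The libraries came from testicular tissue of Sprague-Dawley rats at week 8, with 3 libraries from rats made diabetic with streptozotocin (STZ), a toxin of the insulin-producing beta cells of the pancreas, and 3 from normal rats. According to the study's methods, the diabetic rats ate a high-fat diet before a single STZ injection. Control rats received the citrate buffer in which STZ is dissolved, and the diet of the controls is not stated. The week of sampling is counted from the STZ injection and is not the age of the rats. The study describes the rats as adult males, and their age is not given in the sources used here. No source says that each library came from a separate rat, so the p-values compare libraries. Those from the limma model also draw on the spread of other entries, and not only on that of the entry tested. The tissue was the whole organ, in which fewer cells of a type and less RNA per cell cannot be told apart.

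miRNAs are short RNAs that guide Argonaute proteins to partly complementary messenger RNAs, mainly through the seed, bases 2 to 8 counted from the 5′ end. Each is cut from a hairpin precursor whose 5p and 3p arms can both be used, usually to unequal extents. Hairpins that stand close together can be cut from a single primary transcript, yet the mature miRNAs of a cluster often differ widely in level because cutting, loading and decay differ for each. Clcn5, the host gene here, encodes a chloride and proton exchanger of endosomes that is mutated in Dent disease of the kidney.

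In the RefSeq annotation of the rat assembly GRCr8, 5 hairpins of the rule stood on the plus strand of the X chromosome within a stretch of 11542 bases, all 5 inside the Clcn5 gene, which the annotation also places on the plus strand. Mir532 was at chrX:17919185-17919263 and Mir188 at chrX:17919585-17919664, with 321 bases between them. Mir362 followed at chrX:17926485-17926549, Mir501 at chrX:17927189-17927272 and Mir500 at chrX:17930647-17930726, with 639 bases between Mir362 and Mir501 and 3374 bases between Mir501 and Mir500. The deposited table gives no positions, and exons of Clcn5 were not looked at here.

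RefSeq gave a mature sequence for 7 of the 8 entries, all but miR-362-5p. They are shown 5′ to 3′ with the seed in capitals, since the question of which members move with miR-500-3p depends on how alike their sequences are.
miR-500-3p: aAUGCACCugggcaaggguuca
miR-501-3p: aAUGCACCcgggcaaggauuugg
miR-362-3p: aACACACCuguucaaggauuca
miR-532-5p: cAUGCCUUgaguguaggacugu
miR-532-3p: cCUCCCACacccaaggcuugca
miR-188-5p: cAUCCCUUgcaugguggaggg
miR-500-5p: aAUCCUUGcuaucugggugcuuag

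miR-500-3p and miR-501-3p had the same seed, and no other mature miRNA of the RefSeq table had it. Compared base by base from the 5′ end without gaps, they agreed at 18 of 22 positions, and the differences, written as the base of miR-500-3p, the position and the base of miR-501-3p, were U9C, G18A, C21U and A22G. miR-362-3p had 17 of 22 bases in common with miR-500-3p but another seed. miR-532-5p and miR-188-5p, from the neighbouring hairpins at the other end of the cluster, had 14 of 21 bases in common and different seeds. Beyond the cluster, miR-511-5p (gene Mir511, chromosome 17) had the seed of miR-532-5p, and miR-329-3p (Mir329, chromosome 6) that of miR-362-3p. How the authors shared out reads that match several related miRNAs is not given in the sources used here, so values of miR-500-3p and miR-501-3p are uncertain to that extent.

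Values are CPM, the reads of a miRNA scaled so that all listed miRNAs of a library add up to the same total. Whole reads could be recovered from them, and the libraries held from 305476 to 549446 reads, so 1 read was worth between 1.82 and 3.27 CPM. A level of 3 reads, taken as the floor, stood for 5.46 to 9.82 CPM. These floors and the intervals below cover counting error only. The cluster as a whole was a small part of the testis miRNA pool: its 8 entries summed to 1542, 1575 and 1558 CPM in diabetic replicates 1, 2 and 3 and to 1421, 1437 and 1403 CPM in normal replicates 1, 2 and 3.

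The members covered a wide range of levels (plot of levels by library). miR-532-5p was by far the most abundant, at 1202 CPM on average over the 6 libraries and rank 73 of the 721 entries, and alone made up between 79.1% and 82.4% of the cluster's CPM in each library. miR-362-3p followed at 102.2 CPM, miR-532-3p at 79.1, miR-362-5p at 43.0, miR-500-3p at 41.8 and miR-501-3p at 19.7 CPM. miR-532-5p was above miR-362-3p in 6 of 6 libraries, by a ratio of 9.82 to 14.8, so this step in the order was far larger than the spread.

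The lower steps were less distinct. miR-362-3p was above miR-532-3p in 5 of 6 libraries and their ranges overlapped. miR-532-3p was above miR-362-5p in 6 of 6 libraries, though by as little as 1.06 times. miR-362-5p and miR-500-3p could not be ordered, with the first higher in 4 of 6 libraries. miR-500-3p was above miR-501-3p in 5 of 6 libraries, with normal replicate 3 as the exception.

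**Figure D1:**
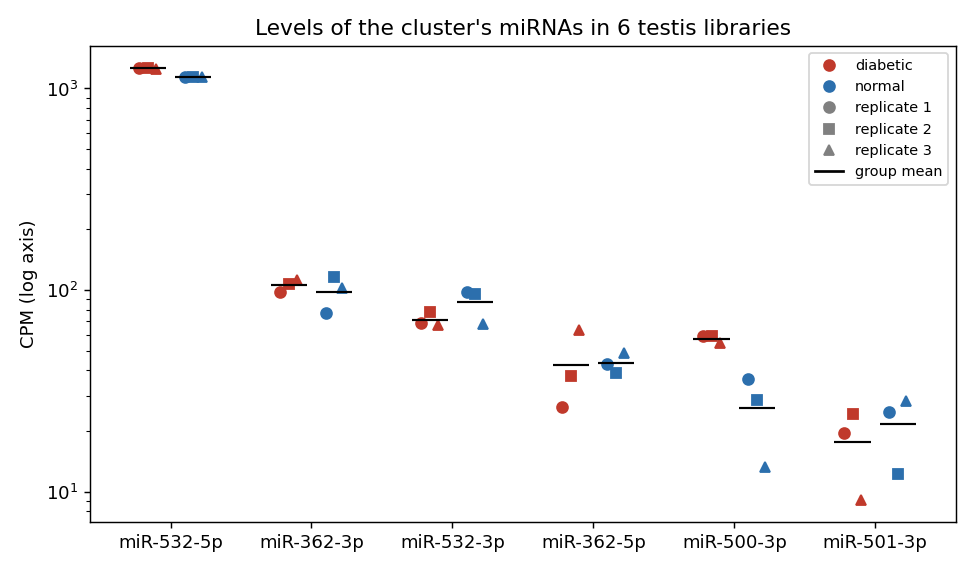
CPM on a log axis for the 6 members detected in every library. Each point is a library (red diabetic, blue normal, symbol by replicate) and black lines are group means. miR-532-5p lies near 1202 CPM, and the red and blue points are apart only for miR-532-5p and miR-500-3p.

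The human counterpart of the Mir500 hairpin has been described as the source of a regulator of the NF-κB inhibitor CYLD, and which arm this was is not settled here. miR-500-3p was at 58.9, 59.1 and 54.6 CPM in diabetic replicates 1, 2 and 3, from 18, 22 and 30 reads. In normal replicates 1, 2 and 3 it was at 36.3, 28.4 and 13.2 CPM, from 16, 14 and 7 reads. All diabetic libraries were above all normal ones, and the diabetic values lay close together while the normal ones ranged widely. Coefficients of variation were 4.42% for the diabetic and 45.2% for the normal libraries, against 21.3% and 28.6% that counting alone would give at these depths. The diabetic libraries were therefore closer to each other than counting error predicts, so their small SD understates the uncertainty of that mean. The mean difference of 1.23 on the log2(CPM + 1) scale became 0.82 without normal replicate 3 and 1.52 without normal replicate 1, and it was the difference for which the cluster was taken up.

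The other arm of the same hairpin, miR-500-5p, gave 1 read in diabetic replicate 3 and 0 in the other 5 libraries. Its level was thus under the floor throughout, and the 3p arm made up 107 of the 108 reads of Mir500. Nothing can be said at this depth on whether the 5p arm differs between the groups.

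miR-501-3p, with the seed of miR-500-3p, is known from neurons as a regulator of a glutamate receptor subunit. It was at 19.6, 24.2 and 9.1 CPM in diabetic and 24.9, 12.2 and 28.3 CPM in normal replicates 1, 2 and 3, from 6, 9 and 5 reads against 11, 6 and 15. The groups overlapped, and the diabetic mean was the lower, at 17.6 ± 7.74 against 21.8 ± 8.49 CPM (SD, n = 3 each). On the log2 scale it changed by -0.31 ± 0.57 (standard error), with a 95% interval from -1.52 to 0.90 (adjusted p = 0.842 in limma over all 578 entries tested; two-sided exact permutation p = 0.5). The interval is wide, so the data set no narrow limit on a change of miR-501-3p, and its sign turned to 0.08 without diabetic replicate 3.

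Set side by side, these arms with a shared seed did not show the same pattern (plot of stacked levels). miR-500-3p had 3, 2.44 and 6 times the reads of miR-501-3p in diabetic replicates 1, 2 and 3, and 1.45, 2.33 and 0.467 times in normal replicates 1, 2 and 3. Their sum was 78.5, 83.3 and 63.7 CPM in the diabetic and 61.2, 40.6 and 41.5 CPM in the normal libraries. The diabetic sums were all above the normal ones, by 2.5 CPM, about 1 read, at the closest pair. miR-500-3p is part of both the ratio and the sum, so these are given as descriptions.

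**Figure D2:**
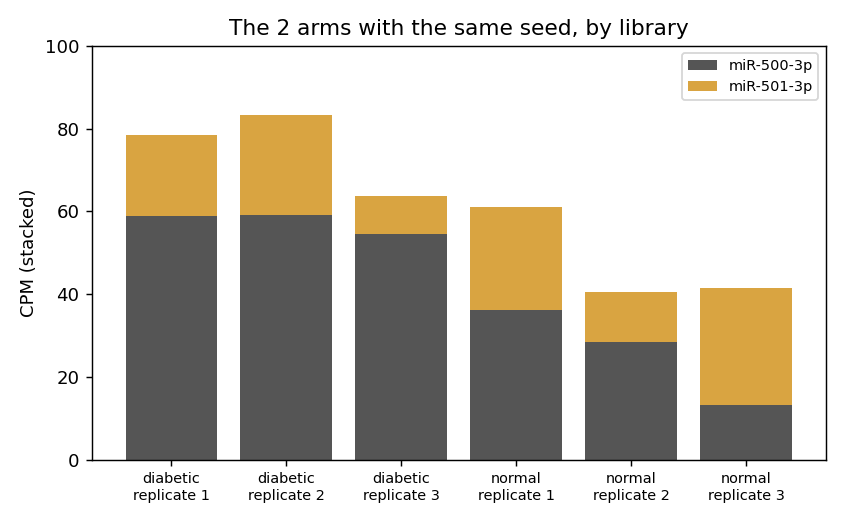
Stacked bars of CPM for miR-500-3p (grey) and miR-501-3p (yellow), which have the same seed, in each of the 6 libraries. The grey part is 54.6 to 59.1 CPM in diabetic and 13.2 to 36.3 CPM in normal libraries, while the yellow part shows no such split.

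miR-532-5p, described elsewhere as a regulator of the transcription factor RUNX3, was the other member whose groups did not overlap. It was at 1270, 1269 and 1249 CPM in diabetic replicates 1, 2 and 3, from 388, 472 and 686 reads. In normal replicates 1, 2 and 3 it was at 1142, 1137 and 1143 CPM, from 504, 560 and 606 reads. All diabetic libraries were higher than all normal ones by a narrow margin, with means of 1262 ± 12.1 and 1141 ± 3.43 CPM (SD, n = 3 each). Coefficients of variation were 0.957% for the diabetic and 0.301% for the normal libraries, against 4.54% and 4.25% from counting alone, so here too the replicates lay closer together than the depth can resolve.

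The log2 change of miR-532-5p was 0.15 ± 0.11 (standard error) with a 95% interval from -0.09 to 0.38 (limma, unadjusted p = 0.202 and adjusted p = 0.774 over the 578 entries). This standard error also draws on the spread of other entries, and it was far wider than the spread of miR-532-5p in its own libraries. By exact permutation p was 0.1, the smallest that 3 against 3 libraries allow. The pooled reads gave a ratio of diabetic to normal of 1.10 with an exact counting interval from 1.03 to 1.18, which compares these libraries and not the conditions. The separation of the groups was lost with upper-quartile scaling. Non-overlapping groups with the diabetic side higher were found for 7.96% of all 578 entries tested, with the diabetic side lower for 6.92%, and so in either direction for 14.9%. Of the 5 tested members other than miR-500-3p, miR-532-5p was the only such entry, so the members' count was near that background.

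miR-532-3p, from the other arm of that hairpin, was not higher in the diabetic libraries as miR-532-5p was. It was at 68.7, 77.9 and 67.3 CPM in diabetic and 97.5, 95.4 and 67.9 CPM in normal replicates 1, 2 and 3, from 21, 29 and 37 reads against 43, 47 and 36. Normal replicates 1 and 2 were the highest, and normal replicate 3 lay among the diabetic libraries. The log2 change was -0.27 ± 0.28 (standard error), with a 95% interval from -0.86 to 0.32 (limma adjusted p = 0.795; exact permutation p = 0.3).

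The 3p arm made up a small share of the reads of Mir532 in every library (plot of arm shares). It was 5.13%, 5.79% and 5.12% in diabetic replicates 1, 2 and 3, with exact Clopper-Pearson 95% intervals from 3.21% to 7.74%, 3.91% to 8.21% and 3.63% to 6.99%. In normal replicates 1, 2 and 3 it was 7.86%, 7.74% and 5.61%, with intervals from 5.75% to 10.4%, 5.74% to 10.2% and 3.96% to 7.68%. Its mean was 5.35% ± 0.382 in diabetic against 7.07% ± 1.27 in normal libraries (SD, n = 3 each), with an overlap at normal replicate 3 (two-sided exact permutation p = 0.2).

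miR-362 used its arms the other way round. miR-362-3p was at 98.2, 107.5 and 112.8 CPM in diabetic and 77.1, 115.7 and 101.9 CPM in normal replicates 1, 2 and 3. Normal replicate 1 was the lowest and normal replicate 2 the highest of the 6, so the groups overlapped. The log2 change was 0.13 ± 0.25 (standard error), with a 95% interval from -0.41 to 0.66 (limma adjusted p = 0.846; exact permutation p = 0.7). It fell to -0.03 without normal replicate 1.

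miR-362-5p, reported in tumours as another regulator of CYLD, was at 26.2, 37.6 and 63.7 CPM in diabetic and 43.1, 38.6 and 49.0 CPM in normal replicates 1, 2 and 3, from 8, 14 and 35 reads against 19, 19 and 26. The diabetic libraries held both the lowest and the highest value. The log2 change was -0.12 ± 0.40 (standard error), with a 95% interval from -0.97 to 0.73 (limma adjusted p = 0.883; exact permutation p = 0.8). It was 0.17 without diabetic replicate 1. The 3p arm took 72.3% ± 7.67 of Mir362 reads in diabetic against 68.9% ± 5.55 in normal ones (SD, n = 3 each, p = 0.7 by exact permutation).

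**Figure D3:**
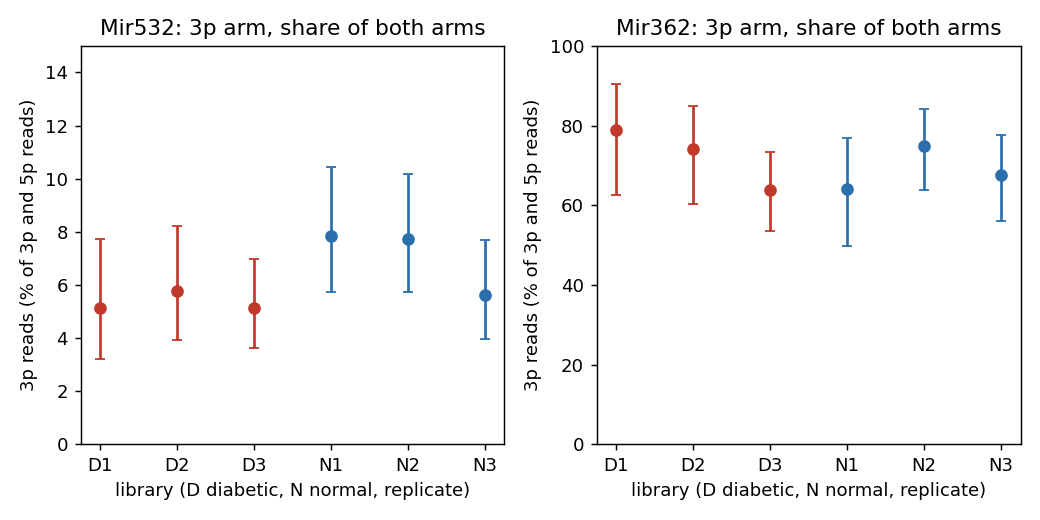
Reads of the 3p arm as a percentage of the reads of both arms, for Mir532 (left, axis to 15%) and Mir362 (right, axis to 100%), by library (D diabetic, N normal). Points are shares and bars exact 95% binomial intervals. For Mir532 the 5p arm dominates, with 3p shares from 5.12% to 7.86%, and for Mir362 the 3p arm does, with shares from 63.9% to 78.9%.

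miR-188-5p, known for steering bone marrow stromal cells between bone and fat, was found only in normal replicate 2, at 10.2 CPM from 5 reads. The other 5 libraries held 0 reads, which allows levels of up to 9.82, 8.06 and 5.46 CPM in diabetic replicates 1, 2 and 3 and up to 6.80 and 5.66 CPM in normal replicates 1 and 3. miR-188-5p and miR-500-5p were thus the members that did not pass the filter on low values, and no fold is given for either. Mir188 lies 321 bases from Mir532, whose 5p arm gave 3216 reads over the 6 libraries against 5 of miR-188-5p.

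Whether the cluster moved together with miR-500-3p can be read from these values side by side (plot of log2 changes). Of the 5 tested members other than miR-500-3p, 2 had a higher mean log2 level in diabetes (miR-532-5p and miR-362-3p) and 3 a lower (miR-532-3p, miR-362-5p and miR-501-3p). Their changes ran from -0.31 to 0.15 with a median of -0.12, and the median over all 578 entries was 0.0046. The sign of the members' median was not stable. The median was 0.128 for the 3 members with at least 10 reads in every library. Without diabetic replicate 1 it was 0.142, and without diabetic replicate 3 it was 0.0799. In the edgeR test the median kept its sign but was smaller in size, at -0.0039. None of the 5 passed an unadjusted p under 0.05 in limma, in the edgeR quasi-likelihood test or in the DESeq2 Wald test, where the limma share over all entries was 8.82%, and none had an adjusted p under 0.05, where it was 0%. miR-500-3p, at 1.23 or at 0.82 without normal replicate 3, was picked out for its size, so no test of its difference from the others was made.

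**Figure D4:**
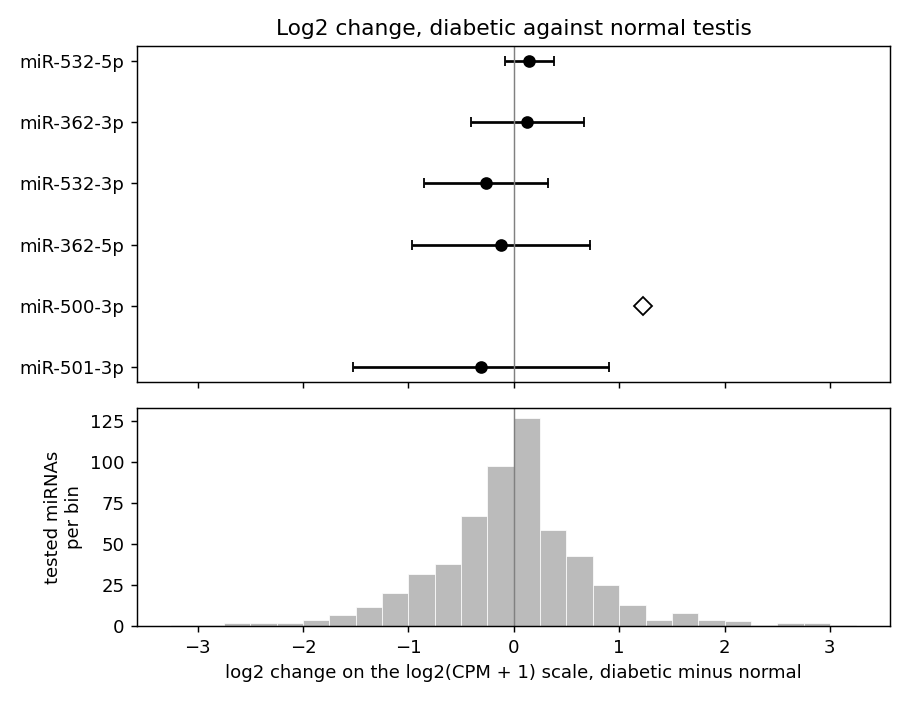
Upper panel: log2 change (diabetic minus normal) of the 6 tested members, with 95% intervals from limma for 5 of them and an open diamond without interval for miR-500-3p. Lower panel: the number of all 578 tested entries per bin of 0.25. Of the members, 5 lie between -0.31 and 0.15 in the centre of the distribution and miR-500-3p lies at 1.23 on its right flank.

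The sums gave a similar picture. Without miR-500-3p the cluster came to 1483, 1516 and 1503 CPM in diabetic and 1385, 1409 and 1390 CPM in normal replicates 1, 2 and 3, a mean ratio of 1.08. The groups did not overlap, but miR-532-5p made up 80.7% to 85.7% of these sums. Without miR-532-5p the remaining 6 entries came to 238.2 ± 22.4 CPM with diabetes against 253.9 ± 15.9 CPM without it (SD, n = 3 each), with overlapping groups and the order turned. miR-500-3p itself was 3.50% to 3.82% of the cluster in diabetic and 0.941% to 2.55% in normal libraries.

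The miRNAs outside the cluster with a seed of a member were scarce. miR-511-5p, with the seed of miR-532-5p and known from macrophages, had 6, 2 and 3 reads in diabetic and 0, 6 and 3 reads in normal replicates 1, 2 and 3. miR-329-3p, with the seed of miR-362-3p and from the imprinted Dlk1-Dio3 region, had 3, 6 and 5 reads against 1, 5 and 5. Their log2 changes were 1.09 ± 0.97 for miR-511-5p and 0.76 ± 0.73 for miR-329-3p (standard error), so a change of either is poorly determined. Most of these libraries were near the floor of 3 reads, and adjusted p-values in limma were 0.795 for each.

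The miRNAs with a pattern over the 6 libraries most like that of miR-500-3p are given as a description, since the group was chosen by these same values. Likeness was the mean absolute difference between centred log2(CPM + 1) values, taken over the 258 other known miRNAs with a mean of at least 20 CPM, and a small value means alike. It depends on the size of a change as well as on its shape. The 5 most alike were miR-124-3p (0.32), miR-128-3p (0.36), miR-664-3p (0.39), miR-598-3p (0.41) and miR-28-5p (0.42). Of the cluster, miR-532-5p ranked 51, miR-362-3p 154, miR-362-5p 176 and miR-532-3p 212 of the 258. miR-501-3p, at a mean of 19.7 CPM, was under the limit and not ranked. miR-128-3p, an abundant neuronal miRNA, was at 752.9, 505.3 and 755.3 CPM in diabetic and 503.2, 487.2 and 364.1 CPM in normal replicates 1, 2 and 3. miR-124-3p, the classical neuronal miRNA, was at 36, 26.9 and 21.8 CPM in diabetic and 27.2, 26.4 and 7.5 CPM in normal replicates 1, 2 and 3. Its groups overlapped. It was lowest in normal replicate 3 as miR-500-3p was, but there it was near the floor of 5.66 CPM.

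Other X-linked clusters were compared by the same counts. In the miR-322, miR-503, miR-542 and miR-450 cluster, 5 of 11 tested entries were higher and 6 lower in diabetes, with a median log2 change of -0.14, and 2 had groups that did not overlap, both lower, where 6.92% of all entries were lower in this way. In the testis cluster that includes miR-465, miR-743 and miR-871, 14 of 20 were higher and 6 lower, with a median of 0.06, and 3 had groups that did not overlap, all higher, where 7.96% of all entries were. Over all 578 entries 292 were higher and 286 lower. The medians of all 3 clusters lay within 0.15 of 0, and no test of a difference between clusters was made. The levels differed far more than the changes: the testis cluster took 9.71% ± 0.470 of diabetic and 8.74% ± 0.178 of normal CPM (SD, n = 3 each), while the Clcn5 cluster without miR-500-3p took 0.150% ± 0.0017 and 0.139% ± 0.0007.

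The tissue label was checked against miRNAs that mark testis cells. The 6 germ-cell markers (miR-34b, miR-34c and miR-449 arms) summed to 311912 to 333840 CPM in diabetic and 306978 to 355976 CPM in normal libraries and overlapped, and miR-449c-5p, the scarcest of them, was at 0 in 4 of 6 libraries. On the log2 scale miR-34b-5p changed by 0.16, miR-449a-5p by 0.01, miR-34c-5p by -0.04 and miR-34c-3p by -0.06. Of the 6 markers, miR-34b-3p alone had groups that did not overlap, lower in diabetes with a log2 change of -0.15. Over all 578 entries tested, 6.92% were lower in this way and 7.96% higher, so 14.9% did not overlap in either direction. The 2 endothelial miR-126a arms summed to 11722 to 13783 CPM in diabetic and 8662 to 11086 CPM in normal libraries, and the 2 arms of miR-202, a marker of Sertoli cells, to 4102 to 4467 and 3262 to 3693 CPM. Both sums were higher in every diabetic library, in the same direction as miR-500-3p and miR-532-5p, but each was carried by a single arm. miR-126a-3p and miR-202-5p had groups that did not overlap (limma, unadjusted p = 0.00255 and 0.00764, adjusted p = 0.348 for each). An unadjusted p under 0.05 in limma was found for 8.82% of all 578 entries. By contrast miR-126a-5p overlapped, and so did miR-202-3p, which changed by -0.18 on the log2 scale. The lists of 4 peritubular, 4 red-cell and 4 white-cell markers overlapped between the groups in their sums, which were 85959 to 96015 against 79267 to 97409, 544.2 to 782.3 against 677.7 to 740.9, and 494.6 to 651.5 against 591.6 to 762.0 CPM. Among the white-cell markers miR-142-3p was lower in every diabetic library, at 363.4, 303.7 and 349.4 against 394.4, 521.7 and 479.1 CPM (limma, unadjusted p = 0.0141, adjusted p = 0.348). The other white-cell markers overlapped and did not all go the same way. On the log2 scale miR-142-5p changed by -0.63, miR-223-3p, scarce in every library, by -0.60 and miR-150-5p by 0.20. The part of these cell types in the values of miR-500-3p and miR-532-5p was not tested.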

How the data were processed

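Small RNA of 6 testis libraries was analysed, 3 diabetic and 3 normal, grouped by their labels. The members and lists were chosen with earlier results of these data known. By the study's methods, single-end reads were trimmed, small RNAs counted and known miRNAs assigned to miRBase families by the authors, who gave levels as CPM. The authors deposited a single table of CPM values with 1 decimal for 721 entries (539 known). Its columns are headed TPM, but the values were whole reads scaled to a common total, with no length term. The submitters' processing notes name Bowtie 0.12.2, HISAT2 2.0, StringTie 1.3.0 and the mouse build mm8, with no role, and the extraction text describes a poly(A) library. The miRBase release and the handling of multiply matching reads are not given in the sources used here.

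Whole reads were recovered as the smallest library total that makes every value a whole number of reads within 0.05 CPM and whose reads sum to it, which held for 100% of values. The 578 entries that reached 1 CPM in 3 or more libraries were tested with limma 3.58.1 (eBayes with trend, R 4.3.3) on log2(CPM + 1), a scale that understates changes of scarce miRNAs, with Benjamini-Hochberg adjustment over all 578. The fit was tested on simulated data with changes far larger than those of the tested members other than miR-500-3p. That simulation therefore cannot tell whether changes of their size would be found. Exact permutation tests were two-sided. edgeR 4.0.16 and DESeq2 1.42.0 on recovered reads, other scalings and filters, a pseudocount of 0.1, a replicate block and leaving out each library were alternatives. Besides all 8 members, the named miRNAs were the 5 most like miR-500-3p, those outside the cluster with a member's seed, and examples from marker lists. Sequences and gene positions are from RefSeq (GRCr8).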

Additional observations from a re-analysis of the deposited data

How the results depend on the processing

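The 5 tested members other than miR-500-3p gave 78 comparisons with other settings, of which 75 kept direction and side of the threshold and 3 turned sign, each without a single library: miR-362-3p to -0.0345 without normal replicate 1, miR-362-5p to 0.172 without diabetic replicate 1 and miR-501-3p to 0.0799 without diabetic replicate 3. Over the fits that left out a library these ranged from -0.0345 to 0.255, from -0.453 to 0.172 and from -0.665 to 0.0799. The smallest p over these comparisons was 0.148 (limma with a pseudocount of 0.1), and the smallest adjusted p 0.643. The difference of miR-500-3p ranged from 1.13 to 1.26 over other settings and from 0.82 to 1.52 without a library. The 51 entries with an unadjusted p under 0.05 became 25 when every library had to hold 10 reads or more, where 257 entries were tested, and 38 to 51 without a library. The count of members other than miR-500-3p with groups that did not overlap went from 1 to 0 with upper-quartile factors and was 1 or 2 without a library, reaching 2 without diabetic replicate 3, normal replicate 2 or normal replicate 3. Their median log2 change of -0.12 became 0.128 under that filter, which left 3 of them, -0.0039 in the edgeR test and -0.0296 in the DESeq2 test, and ranged from -0.191 to 0.142 without a library, turning sign to 0.142 without diabetic replicate 1 and 0.0799 without diabetic replicate 3. The log2 change of their summed CPM, 0.106, was 0.0735 with DESeq2 scaling, 0.0901 with the upper quartile and 0.0780 with TMM, and -0.0923 without miR-532-5p. For single hairpins it was 0.0682 for Mir362 and -0.306 for Mir501. For these changes the cause was not tested.

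Same-numbered libraries did not deviate together (correlations of -0.113, -0.0733 and -0.0568 over 296 miRNAs), so the values gave no sign of a pairing by number. With 3 shallow libraries per group, a weak pairing could be missed. With the replicate block 44 entries had an unadjusted p under 0.05 and 0 of the 5 members did, and no call on a member changed. Depth limits miR-501-3p, miR-500-3p and miR-362-5p, with at most 15, 30 and 35 reads in any library.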
